A study of Mus musculus with 35 samples.

Results

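The genes of LIF, JAK and STAT3 signalling were followed through the mouse epiblast and 4 kinds of cultured pluripotent cells. They were chosen by name: the ligand Lif, the receptor subunits Lifr and Il6st, the kinases Jak1 and Jak2, the transcription factor Stat3 and the inhibitor Socs3. These 7 genes were found among 54446 in the deposited table, and all 7 passed the filter on low values in both sets of samples (11541 genes tested in culture and 11880 in embryos).

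Leukaemia inhibitory factor (LIF) binds its receptor LIFR, which pairs with gp130, the subunit encoded by Il6st that all cytokines of the IL-6 family share. The receptor pair brings Janus kinases (JAK1, JAK2) together, these phosphorylate STAT3, and STAT3 dimers enter the nucleus and switch on target genes, among them Socs3, whose protein blocks JAK activity and so closes a feedback loop. In culture, LIF is used to hold mouse embryonic stem cells in the naive state, whereas epiblast stem cells, which resemble the post-implantation epiblast, are grown with FGF2 and Activin A instead.

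Socs3 changed most between neighbouring stages, and a match to the spacing that STAT dimers are known to bind was found next to its start. The sequence is shown because it is the only match among these genes, with the 9 matching bases in capitals and the flanks in lower case, written 5′ to 3′ on the minus strand of chr11:117969502-117969530 (GRCm38.p6, from RefSeq).
Socs3: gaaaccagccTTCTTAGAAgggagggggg
The motif searched was TTCNNNGAA, which reads the same on both strands, in windows from 250 bases before to 50 after each RefSeq start. It was present in 1 of the 8 windows of the 7 genes and in 8.3% of all 32851 windows. In Socs3 it lay 154 to 146 bases before the RefSeq start, at position 117969366, and the gene as annotated in the deposited table begins 681 bases further upstream, so these bases lie within its span. A match is a description of letters and does not show binding.

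The 7 genes are protein-coding and lie on 5 autosomes (mm10). Lif spans chr11:4257557-4272514, Stat3 spans chr11:100885098-100939540 and Socs3 spans chr11:117966079-117970047, so that 3 of the 7 share a chromosome. Lifr lies at chr15:7090614-7197489, Il6st at chr13:112464070-112510086, Jak1 at chr4:101152367-101265282 and Jak2 at chr19:29251828-29313080. The 3′ end of Stat3 overlaps that of Stat5a, on the opposite strand, by 72 bases; Stat5a did not exceed 2.66 TPM in any library.

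Bulk RNA-seq was available for 27 libraries, 3 in each of 9 groups, all labelled wild-type. In the embryo (15 libraries, labelled strain CD-1, male and female embryos mixed), the inner cell mass at E3.5 and the epiblast on each following day up to E7.5 were profiled without treatment; per the methods, some embryos carried a Pdgfrα:H2B-GFP reporter. In culture (12 libraries), 3D epiblast stem cells in Matrigel with FGF2, Activin A, the Wnt inhibitor XAV and the BMP inhibitor Noggin came either from embryonic stem cells (ESC 3D) or from E5.5 epiblasts (Embryo 3D). They were compared with 2D EpiSCs, converted from embryonic stem cells with FGF2 and Activin A, and with EpiLCs, embryonic stem cells kept for 48 h in FGF2 and Activin A. The embryonic stem cells had been kept in LIF and 2 kinase inhibitors beforehand, and LIF is not among the listed additions to any of the 4 culture media. Per the methods, lines from epiblasts were derived from LifeAct-GFP and CD1 embryos, and the embryonic stem cell lines used include E14. Origin of the 3D cultures therefore cannot be told apart from cell line and genetic background. The labels do not say whether replicates were separate cultures or litters, so the p-values measure the spread between these samples, which may be technical.

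Values are TPM, transcript abundances corrected for gene length and scaled to the same total in every library, so the depth behind a value is unknown. The preparation differed within the embryo series: E3.5 was laser-dissected, E4.5 was freed of trophectoderm by immunosurgery, trypsinised and picked as GFP-negative cells, and E5.5 to E7.5 were dissected by hand without enzyme, with a different RNA fragmentation from E3.5 and E4.5. Cultures were prepared with another library kit, so that embryo against culture cannot be told apart from kit and was not tested. Of 3 core pluripotency factors, Pou5f1 was at 241 TPM or more and Sox2 at 28.7 TPM or more in every library. Nanog averaged 87.9 TPM at E3.5, 14.4 TPM at E4.5, 23.7 TPM at E5.5, 23.2 TPM at E6.5 and 7.08 TPM at E7.5. The 8 naive markers summed to 862 to 894.5 TPM at E3.5 and 423 to 457 TPM at E4.5. From E5.5 to E7.5 they summed to 41.9 to 52.8 TPM. The sums of 6 post-implantation epiblast markers were 418 to 431, 542 to 598 and 668 to 2656 TPM over the same spans. Other marker lists went partly against the tissue labels: the summed level of 11 trophectoderm and extra-embryonic ectoderm markers was 3168 to 3233 TPM at E3.5, 2847 to 3039 TPM at E4.5 and 336 to 940 TPM from E5.5 to E7.5. Most of this sum at E3.5 and E4.5 was Krt18 (means of 1682 and 1666 TPM) and Krt8 (999 and 787 TPM). The trophectoderm genes Cdx2 and Gata3 reached 157 to 168 TPM and 203 to 220 TPM at E3.5. At E4.5 they were at 22.2 to 26.3 TPM and 84.6 to 93.7 TPM. Of 9 tested markers of this list, these 2 were called lower at E4.5 than at E3.5 and 4 were called higher. The summed level of 12 primitive and visceral endoderm markers was 740 to 770 TPM at E3.5, 317 to 365 TPM at E4.5 and 719 to 1358 TPM from E5.5 to E7.5; among them Afp was at 0 in all E3.5 and E4.5 libraries and at 75.5 to 128 TPM from E5.5 to E7.5. In bulk samples, fewer cells of a type and less RNA per cell cannot be told apart, and the part of other cell types in the results was not tested.

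A gene was called different when limma, fitted on log2(TPM + 1) over all tested genes of the set, gave a Benjamini-Hochberg adjusted p under 0.05 and a log2 fold change beyond 1 in either direction. All folds are on this scale, which understates the change of low genes. A difference with its SE is given as, for example, 1.56 ± 0.10.

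Between E3.5 and E4.5, Lif and Stat3 fell and Socs3 rose. These were 3 of the 7 genes, where 17.8% of all tested genes were called. The median log2 fold change of the 7 genes was -0.85, against -0.10 over all genes. At the same step, 2 of 9 tested trophectoderm and extra-embryonic ectoderm markers fell and 4 rose. Of 12 endoderm markers, 5 fell and 1 rose. The part of other cell types in the changes of Lif, Stat3 and Socs3 was not tested.

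The largest of these 3 changes was in the ligand. Lif was at 15.6, 11.6 and 14.4 TPM in the E3.5 libraries and at 0.378, 0.824 and 0.861 TPM at E4.5. Every E4.5 library lay below every E3.5 library, and Lif fell by 3.14 on the log2 scale (SE 0.17, limma adjusted p = 3.66e-09). The other ligands of the family were low: of 8 (Il6, Il11, Osm, Cntf, Ctf1, Ctf2, Clcf1, Il27), 2 could be tested and neither was called, and their summed level stayed between 1.85 and 3.79 TPM over both stages.

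Stat3, the factor that carries the signal to the nucleus, was at 97.7, 91.3 and 89.3 TPM at E3.5, higher than 94.4% of 20774 autosomal protein-coding genes by its mean. It was at 22.2, 23.5 and 18.6 TPM at E4.5. The libraries of both stages were far apart, and Stat3 fell by 2.07 on the log2 scale (SE 0.11, limma adjusted p = 3.00e-09).

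Socs3, the feedback inhibitor, went the other way. It was at 24.5, 26.2 and 22.3 TPM at E3.5 and at 77.8, 70.6 and 72.3 TPM at E4.5. The ranges did not overlap, and Socs3 rose by 1.56 ± 0.10 on the log2 scale (limma adjusted p = 2.52e-08). Socs3 was thus higher, and Stat3 lower, at E4.5 than at E3.5. No stage between them was sampled, so the order of the changes is not known. The ratio of Socs3 to Stat3 TPM, chosen after the values were seen, was 3.5, 3 and 3.88 in the E4.5 libraries and 0.188 to 0.755 in each of the 24 others.

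The 10 immediate early and dissociation response genes, such as Fos and Egr1, moved with Socs3 in the embryo. Their summed level was 79.7 to 87.7 TPM at E3.5, 966 to 1000 TPM at E4.5 and 61.7 to 116 TPM from E5.5 to E7.5. At E4.5, 8 of 10 were called higher than at E3.5, Fos by 5.89 ± 0.11 and Egr1 by 4.33 ± 0.10 on the log2 scale. The part of this response in the Socs3 level was not tested.

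The receptor subunits and kinases changed less at this step. Lifr was at 75.9, 70.2 and 70.4 TPM at E3.5 and at 45.0, 34.2 and 39.7 TPM at E4.5, without overlap (log2 fold change -0.86 ± 0.10, limma adjusted p = 1.01e-05). Jak1, with 58.9, 66.0 and 60.3 TPM against 31.0, 37.5 and 32.9 TPM, gave -0.85 ± 0.13. Neither reached the fold that was required. The Il6st libraries of both stages overlapped (22.0 to 23.7 TPM and 17.8 to 23.1 TPM). Jak2 was the only other gene with a higher mean at E4.5 than at E3.5, at 8.25, 7.69 and 7.29 TPM against 4.36, 4.26 and 3.59 TPM (0.79 ± 0.11, limma adjusted p = 4.78e-05).

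**Figure D1:**
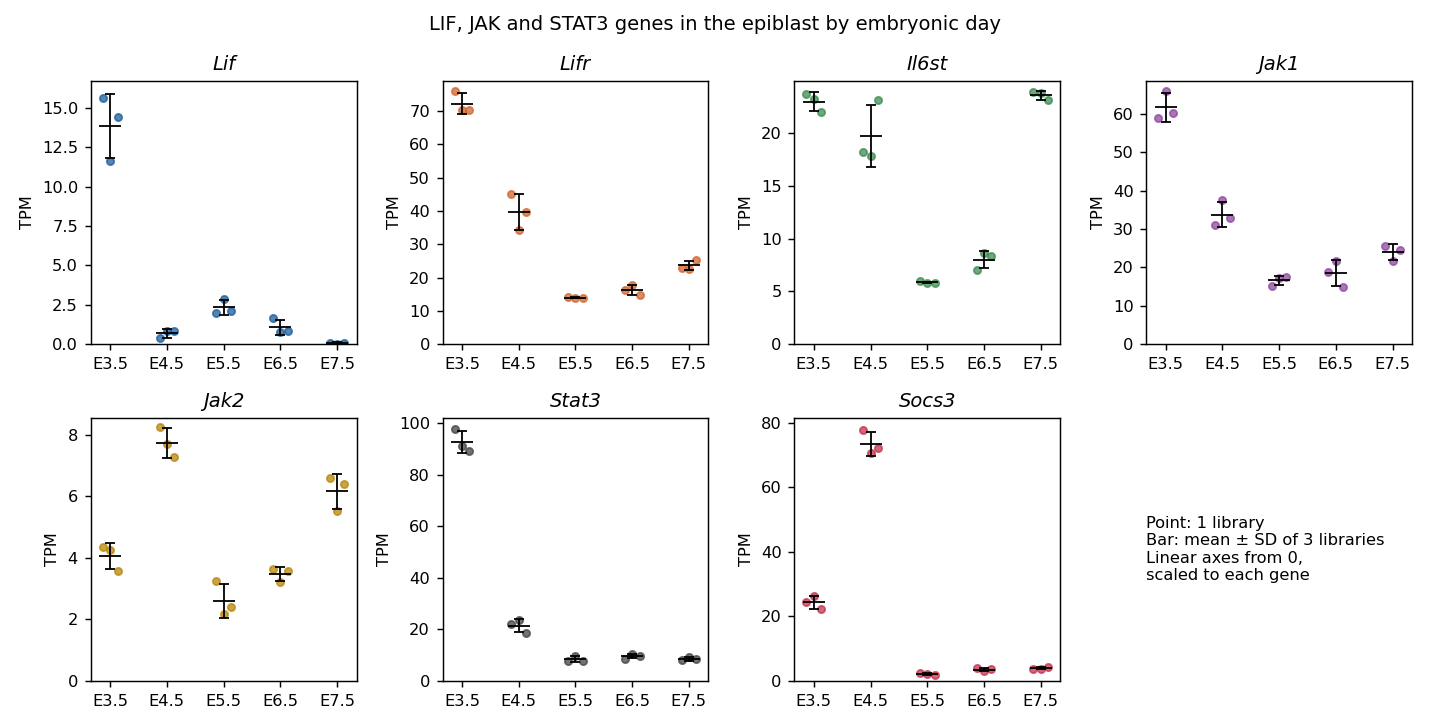
TPM of each of the 7 genes in the E3.5 inner cell mass and the E4.5 to E7.5 epiblast; points are libraries, bars the mean ± SD of 3 libraries, and each linear axis starts at 0. Stat3 and Lif stand highest at E3.5, Socs3 at E4.5 (70.6 to 77.8 TPM), and Il6st is low at E5.5 and E6.5 only.

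At E5.5 the module was lower nearly throughout. Lifr, Il6st, Jak2, Stat3 and Socs3 fell between E4.5 and E5.5, 5 of the 7 genes against 24.4% of all genes called, and in all 7 the libraries of both stages did not overlap, as was so for 64.2% of all genes. The median of the 7 was -1.28, whereas that of all genes was 0.16 (1772 genes were called higher and 1125 lower). Relative to that median shift, the 5 called genes were lower by values from -1.41 to -4.69. Stage cannot be told apart here from dissection and RNA fragmentation, which changed at the same step. Markers of other cell types changed too. Of 9 tested trophectoderm and extra-embryonic ectoderm markers, 9 fell, and of 12 endoderm markers 6 rose and none fell. The part of other cell types in the changes of the 7 genes was not tested.

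Socs3 was at 2.49, 2.23 and 1.98 TPM at E5.5, down from over 70 TPM in each E4.5 library. It fell by 4.53 on the log2 scale (SE 0.10, limma adjusted p = 5.75e-13), and 8 of the 10 immediate early genes fell at the same step. In a comparison of E5.5 with E3.5, added after the data were seen, Socs3 fell by 2.97 (limma adjusted p = 1.4e-10). The part of the immediate early response in either fall was not tested.

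Il6st, the shared subunit, was at 5.94, 5.83 and 5.84 TPM at E5.5, its lowest level in the embryo, with replicates that hardly differed (SD 0.0614 TPM, n = 3). It fell by 1.58 on the log2 scale from E4.5 (SE 0.10, limma adjusted p = 1.10e-08). Lifr, at 14.2, 13.9 and 13.8 TPM, fell by 1.43 (SE 0.10, adjusted p = 4.10e-08). Both receptor subunits therefore dropped at the same step. Il6ra, the subunit that binds IL-6, fell from a mean of 14.4 TPM to 0.0731 TPM (-3.82 on the log2 scale), and was the 1 of 4 tested receptors of the family called lower.

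Stat3 fell again, to 7.81, 9.66 and 7.78 TPM, by 1.25 on the log2 scale (SE 0.11, limma adjusted p = 3.26e-07). Jak2, at 3.24, 2.19 and 2.42 TPM, fell by 1.28 (SE 0.11, adjusted p = 3.03e-07). Jak1 was at 15.2, 17.2 and 17.5 TPM, below every E4.5 library but short of the fold (-0.98 ± 0.13, adjusted p = 1.31e-05). Jak1 passed after rescaling the libraries by median-of-ratios factors (-1.13), with a pseudocount of 0.1 (-1.02), and without E5.5 replicate 3 (-1.01) or E4.5 replicate 1 (-1.03). Jak3, a kinase best known from lymphoid cytokine receptors, fell by 1.90 to a mean of 0.798 TPM.

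Lif was the exception in direction, at 2.01, 2.88 and 2.13 TPM against 0.378 to 0.861 TPM at E4.5 (0.99 ± 0.17, limma adjusted p = 1.92e-04, not called). Its call rests on single libraries: it passed without E5.5 replicate 1 (1.06) or 3 (1.03), without E4.5 replicate 2 (1.05) or 3 (1.07), and with a pseudocount of 0.1 (1.68). Against E3.5 it was lower at E5.5, by -2.15.

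Because E4.5 stood apart in immediate early genes, E5.5 was also compared with E3.5 in a fit without the E4.5 libraries, an alternative added after the data were seen. There 6 of the 7 genes fell, where 32.3% of all genes were called: Lif, Lifr (-2.29), Il6st (-1.80), Jak1 (-1.83), Stat3 (-3.32) and Socs3. Jak2 gave -0.50 and was not called. The stages E3.5 and E5.5 also differed in dissection, RNA fragmentation and trophectoderm markers (3168 to 3233 TPM against 336 to 369 TPM), whose part was not tested.

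**Figure D2:**
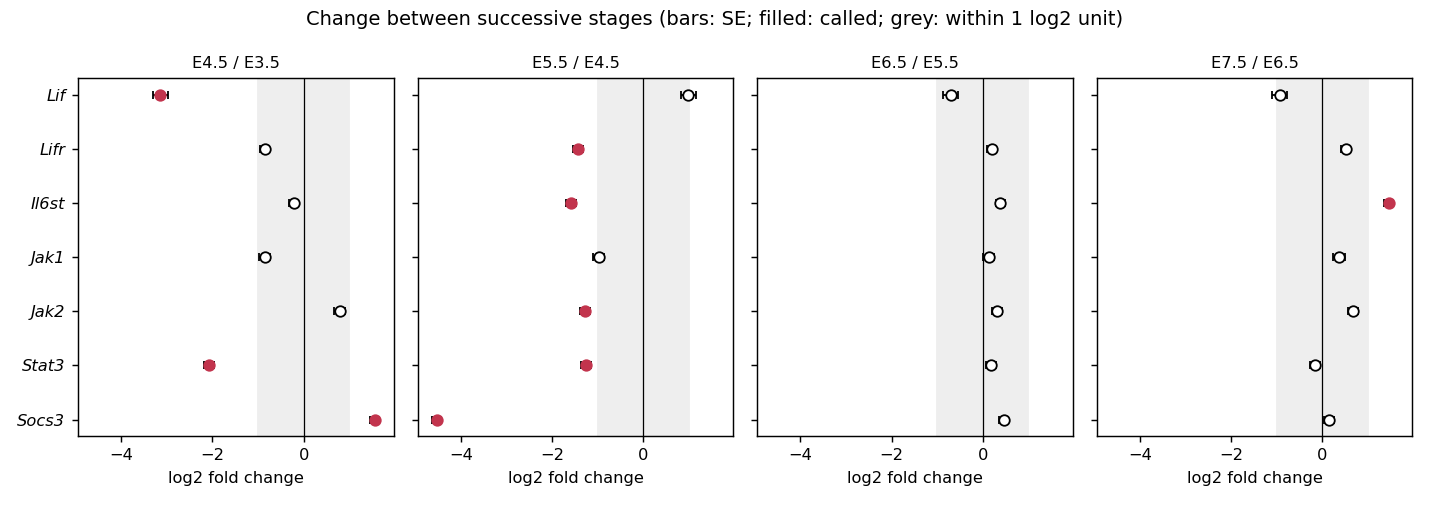
log2 fold change of each gene between successive stages, one panel per step on a shared axis; bars are the SE, filled points were called and grey marks changes within 1 log2 unit. Calls crowd into the first 2 steps, with Socs3 at 1.56 and then -4.53.

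Known LIF and STAT3 targets of embryonic stem cells also moved at these steps. Of 11 (Klf4, Klf5, Tfcp2l1, Gbx2, Pim1, Pim3, Myc, Junb, Bcl3, Sgk1, Mcl1), 4 fell and 2 rose between E3.5 and E4.5, and 6 fell and none rose between E4.5 and E5.5. The median of the 11 at the second step was -2.67, against 0.16 over all genes. The naive pluripotency factor Tfcp2l1 had mean levels of 169, 28.5 and 3.65 TPM at E3.5, E4.5 and E5.5. Klf5 had 685, 244 and 11.95 TPM, Klf4 126, 58.2 and 3.66 TPM, and Bcl3 24.3, 10.9 and 0.188 TPM. These 4 fell at both steps, in the direction of Stat3. Junb and Pim1 rose with Socs3 at E4.5, by 1.55 ± 0.14 and 1.41 ± 0.10. Junb, which is also an immediate early gene, then fell by 3.31 to 4.49 TPM.

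Of 14 further negative regulators (SOCS and PIAS proteins, Cish and 3 phosphatases), none was called higher and 2 fell between E3.5 and E4.5, namely Cish (12.9 to 1.11 TPM, -2.73 ± 0.16) and Socs1 (9.26 to 2.22 TPM, -1.71 ± 0.16). The phosphatase Ptpn6 also had its highest level at E4.5, without overlap, at means of 17.5, 34.3 and 13.9 TPM from E3.5 to E5.5. Its difference at the first step was short of the fold (0.93 ± 0.15, limma adjusted p = 0.000154), and it was the 1 of 14 that fell at the second (-1.23). Of 5 adaptors that link gp130 to ERK and PI3K, Gab1 alone was called over these 2 steps, falling from a mean of 40.5 to 14.7 TPM between E4.5 and E5.5.

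**Figure D3:**
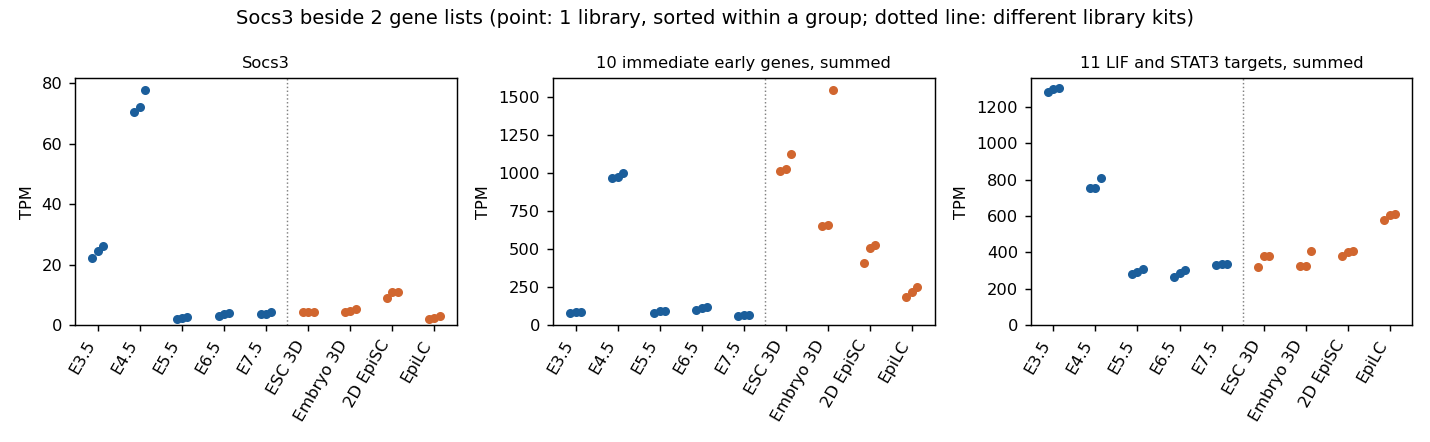
TPM of Socs3, the summed TPM of 10 immediate early genes and that of 11 LIF and STAT3 targets in all 9 groups; points are libraries, sorted within a group, and the dotted line separates embryo from culture, which differ in kit. In the embryo Socs3 and the immediate early genes both peak at E4.5, while in culture the immediate early sum is highest in 3D cells (652.8 to 1545 TPM) and Socs3 in 2D EpiSCs.

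From E5.5 to E6.5 none of the 7 genes was called by limma, where 1.20% of all genes were. Adjusted p was under 0.05 for 3 of them and for 10.8% of all genes. Socs3 gave 0.46 ± 0.10 (2.49, 2.23 and 1.98 TPM against 3.91, 2.96 and 3.54 TPM), Il6st gave 0.38 ± 0.10 and Lif gave -0.70 ± 0.17. Lifr, Jak1, Jak2 and Stat3 lay between 0.13 and 0.32, with adjusted p from 0.0836 to 0.558.

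Il6st returned at E7.5. It was at 7.07, 8.62 and 8.31 TPM at E6.5 and at 23.9, 23.8 and 23.1 TPM at E7.5, a level that overlapped with E3.5. It rose by 1.45 ± 0.10 (limma adjusted p = 7.41e-08), or 1.14 relative to the median of all genes, which was 0.31 at this step. It was the 1 of 7 genes called, where 12.6% of all genes were. Of the partners with which gp130 can signal, Cntfr, the receptor for ciliary neurotrophic factor, rose with it, from 6.04 to 34.5 TPM (2.38 ± 0.21). Lifr, at 16.2, 17.8 and 14.7 TPM and then 23.0, 22.5 and 25.3 TPM, gave 0.52 ± 0.10 and was not called, 0.20 relative to the median.

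Lif was nearly undetected at E7.5, listed at 0.0982, 0 and 0.1 TPM, below the 1.64, 0.765 and 0.820 TPM of E6.5 (-0.94 ± 0.17, limma adjusted p = 4.91e-04, not called). The call changed without E6.5 replicate 2 (-1.04) or replicate 3 (-1.02). Jak2 rose short of the fold, from 3.63, 3.23 and 3.59 TPM to 6.59, 5.51 and 6.40 TPM (0.68 ± 0.11). Stat3, at 7.96, 9.23 and 8.35 TPM, and Socs3, at 3.67, 3.79 and 4.38 TPM, overlapped with their E6.5 levels. Of 11 streak and mesoderm markers, 5 rose and 5 fell between E6.5 and E7.5, after 9 had risen at E6.5. Of 9 tested trophectoderm and extra-embryonic ectoderm markers, 5 rose and 1 fell at E7.5. Hand1, at means of 9.73 and then 82.0 TPM, is on both lists. The 1 that fell was Elf5, from a mean of 4.79 to 0.224 TPM. The part of other cell types in the Il6st level was not tested.

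Over the whole series from E3.5 to E7.5, Lif, Lifr, Jak1, Stat3 and Socs3 were lower, 5 of 7 genes where 37.2% of all genes were called and the median of all genes was 0.30. Stat3 differed by -3.30 ± 0.11 (limma adjusted p = 6.25e-12), Socs3 by -2.36 ± 0.10, Lifr by -1.57 ± 0.10 and Jak1 by -1.33 ± 0.13. Lif gave the largest of the 5, -3.79 ± 0.17, against a stage at which 1 library was at 0. The kinases thus ordered differently by stage: Jak1 was highest at E3.5, then E4.5, then E7.5, while Jak2 was highest at E4.5, then E7.5, then E3.5. For Jak1 the libraries of E7.5, E6.5 and E5.5 overlapped between neighbours, and for Jak2 those of E3.5, E6.5 and E5.5.

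Within a library, 3 balances were compared across groups with a permutation test, and the p-values were adjusted over 6 tests (3 balances in 2 sets). Stat3 supplied 81.3% ± 3.12 (SD, n = 3) of the TPM of the 7 STAT genes at E3.5, 51.5% ± 3.58 at E4.5, 26.4% ± 2.66 at E5.5, 28.9% ± 3.81 at E6.5 and 20.9% ± 0.475 at E7.5. The share differed between stages (permutation test over 100000 resamples, adjusted p = 1.8e-04). Among the other STAT genes, Stat5b had means of 3.27, 0.712 and 4.42 TPM at E3.5, E4.5 and E5.5. Its rise between E4.5 and E5.5 was 1.68 on the log2 scale, from a stage at which it was lower than at E3.5. In culture Stat3 held 18.9% to 23.2% on average, and a difference between the 4 cultures was not detected (exact permutation test, adjusted p = 0.0586).

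The ratio of Lifr to Il6st, as the difference of log2(TPM + 1), fell in the embryo from 1.61 ± 0.0443 at E3.5 to 0.0015 ± 0.11 at E7.5, with 0.97, 1.12 and 0.94 in between (permutation test, adjusted p = 2.4e-04). All 12 embryo libraries up to E6.5 had more Lifr than Il6st, and all 12 cultures had less. Embryo and culture cannot be told apart here from library kit. Among cultures the ratio was -1.56 ± 0.161 in ESC 3D, -1.32 ± 0.323 in Embryo 3D, -0.91 ± 0.236 in 2D EpiSCs and -0.34 ± 0.169 in EpiLCs (exact permutation test, adjusted p = 0.00364). The Jak1 share of the 4 JAK genes was more even, 64.0% to 73.2% on average in the embryo (permutation test, adjusted p = 0.0201) and 53.0% to 62.0% in culture (exact permutation test, adjusted p = 0.0133).

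**Figure D4:**
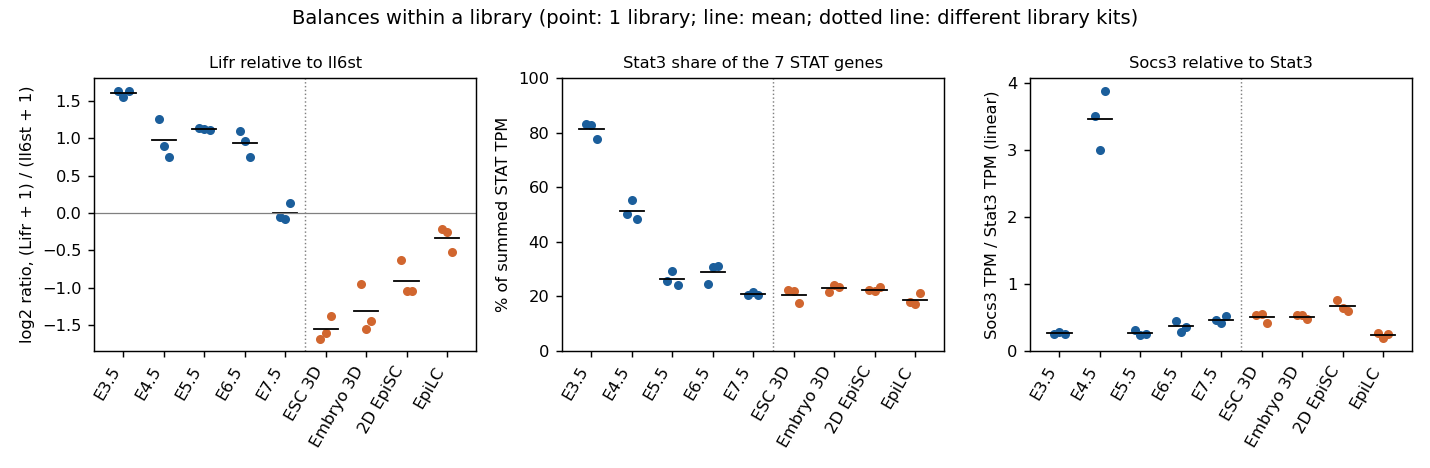
Lifr relative to Il6st (log2 scale), the Stat3 share of the 7 STAT genes (percent) and Socs3 relative to Stat3 (linear) in each library, with the group mean as a line and a dotted line between embryo and culture, which differ in kit. The Stat3 share falls from 81.3% at E3.5 to 20.9% at E7.5, Lifr exceeds Il6st in every library up to E6.5, and Socs3 exceeds Stat3 at E4.5 only.

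In culture, 2D EpiSCs had the highest mean of all 7 genes except Il6st, for which they and Embryo 3D were level. The comparison with ESC 3D had the most calls: Lif, Lifr, Jak2 and Socs3 were lower in ESC 3D, 4 of the 7 genes where 9.89% of all genes were called, 1068 of them lower and 73 higher. The median of all genes was -0.21 at this comparison, and relative to it Lif was at -0.84, Lifr at -0.83, Socs3 at -0.88 and Jak2 at -1.19. After the same rescaling the 4 calls became 1, Jak2.

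Markers of other cell types differed between the cultures too. Endoderm markers summed to 1.94 to 15.7 TPM in ESC 3D, 14.4 to 28.5 TPM in Embryo 3D, 53.5 to 67.5 TPM in 2D EpiSCs and 7.58 to 11.7 TPM in EpiLCs, with Afp at 0 in all 2D EpiSC and Embryo 3D libraries. Trophectoderm markers, mostly the keratins Krt8 and Krt18, summed to 245 to 373, 195 to 221, 574 to 736 and 45.2 to 66.7 TPM in the same order. Streak and mesoderm markers summed to 60.04 to 77.5, 147 to 237, 176 to 212 and 7.48 to 11.4 TPM. In ESC 3D against 2D EpiSCs, 4 of 5 tested endoderm markers, 4 of 6 trophectoderm markers and 2 of 5 streak markers were lower and none was higher. In Embryo 3D against 2D EpiSCs, 2 of 5 endoderm markers were lower and 1 higher, and 3 of 6 trophectoderm markers were lower. Streak markers went the other way there, with 1 of 5 higher and none lower. The part of such cells in the differences of the 7 genes was not tested.

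Jak2 was at 2.24, 2.46 and 4.44 TPM in ESC 3D and at 8.63, 8.64 and 11 TPM in 2D EpiSCs (-1.40 ± 0.19, limma adjusted p = 1.98e-04). The third ESC 3D library was the highest of its group for all of the 7 genes but Lif, and it also stood furthest from the others over all genes. Its Jak2 level remained below each 2D EpiSC library.

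Socs3 was at 4.24, 4.18 and 4.38 TPM in ESC 3D, at 5.16, 4.56 and 4.13 TPM in Embryo 3D and at 10.9, 9.04 and 10.9 TPM in 2D EpiSCs. Both 3D cultures lay below 2D EpiSCs without overlap, by -1.09 ± 0.12 (limma adjusted p = 4.78e-05) and -1.003 ± 0.117 (adjusted p = 7.05e-05), and overlapped with each other. The second value was the 1 call of 7 genes between Embryo 3D and 2D EpiSCs, where 8.82% of all genes were called, and lies at the threshold: it was lost on rescaling (-0.91), with near-identical libraries averaged (-0.99), and without Embryo 3D replicate 2 or 3 or EpiSC replicate 1 or 3 (-0.94 to -0.998). The 10 immediate early genes went both ways here: against 2D EpiSCs, 5 were higher and 2 lower in ESC 3D, and 3 were higher and 3 lower in Embryo 3D. Their sum, 653 to 1545 TPM in the 3D cultures and 409 to 524 TPM in 2D EpiSCs, was carried by genes such as Fos and Fosb, while Btg2 (means of 29.2, 36.0 and 102 TPM in ESC 3D, Embryo 3D and 2D EpiSCs) and Ier3 (14.5, 6.33 and 36.5 TPM) were lower in both 3D cultures, as Socs3 was. The part of this response in the Socs3 level was not tested here either.

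Lif was at 1.95, 2.63 and 1.90 TPM in ESC 3D and at 5.77, 5.20 and 5.6 TPM in 2D EpiSCs (-1.05 ± 0.20, limma adjusted p = 0.00209), and without ESC 3D replicate 3 it gave -0.99. Lifr was at 1.66, 1.65 and 2.67 TPM against 5.85, 4.53 and 4.97 TPM (-1.04 ± 0.15, limma adjusted p = 3.51e-04), and was lost without ESC 3D replicate 1 or 2 or EpiSC replicate 1 (-0.96 in each). Stat3, at 7.80, 7.51 and 10.6 TPM against 14.4, 14.2 and 18.2 TPM, did not overlap but gave -0.79 ± 0.13 and was not called. In Embryo 3D, Stat3 (9.65, 8.57 and 8.71 TPM) gave -0.73 ± 0.13 against 2D EpiSCs and Jak1 (17.5, 17.6 and 17.3 TPM) gave -0.62 ± 0.13, both not called.

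**Figure D5:**
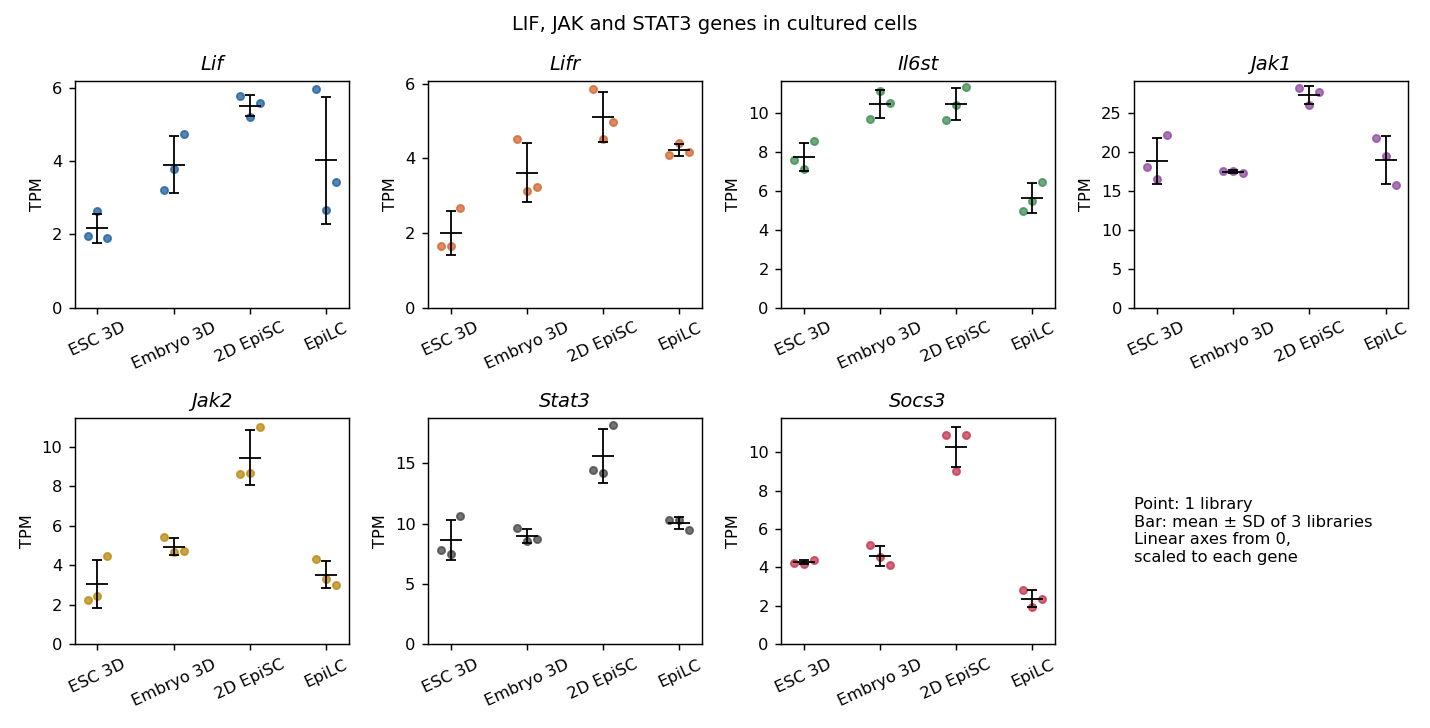
TPM of each of the 7 genes in the 4 cultures; points are libraries, bars the mean ± SD of 3 libraries, and each linear axis starts at 0. The 2D EpiSC libraries lie above those of the other cultures for Jak1, Jak2, Stat3 and Socs3, with Socs3 at 9.04 to 10.9 TPM. They do so narrowly for Lifr, from 4.534 TPM against up to 4.52 TPM in Embryo 3D.

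Of the 11 LIF and STAT3 targets, 9 could be tested in culture. Klf5 and the kinase Pim1 were lower than in 2D EpiSCs in ESC 3D (-1.62 and -1.13) and in Embryo 3D (-1.13 and -2.09), while Klf4 was higher in both (1.92 and 1.95, from a mean of 3.54 TPM in 2D EpiSCs to 16.5 and 17.0 TPM). Pim3 was called lower in Embryo 3D (-1.02). The inhibitor Cish, induced by STAT5 in other cells, was lower with Socs3 in both 3D cultures, at means of 2.24 and 1.69 TPM against 7.52 TPM (-1.39 and -1.66), and was the 1 of 14 further inhibitors called in each comparison.

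EpiLCs, the shortest culture, had the lowest Socs3, at 2.82, 1.94 and 2.38 TPM. Compared with EpiLCs, 2D EpiSCs had higher Socs3 (1.74 ± 0.12, limma adjusted p = 2.81e-07) and higher Jak2 (1.21 ± 0.19, adjusted p = 1.82e-04), the latter at 4.29, 3.28 and 2.98 TPM in EpiLCs. These were 2 of 7 genes, where 20.4% of all genes were called and the median of all genes was 0.18, so that both remained over 1 relative to it (1.56 and 1.03). In 2D EpiSCs, 8 of the 10 immediate early genes were also higher than in EpiLCs. Higher too were 6 of 6 tested trophectoderm markers (of 11 listed). So were 5 of 5 tested streak and mesoderm markers (of 11) and 3 of 5 tested endoderm markers (of 12). Untested trophectoderm markers were low, among them Cdx2 and Elf5, at means of 0.0213 and 0.265 TPM in 2D EpiSCs and 0.169 and 0.0931 TPM in EpiLCs. The part of immediate early genes or of other cell types in the Socs3 and Jak2 differences was not tested. Cish (1.80) and Socs5 (2.04) were the 2 of 14 further inhibitors that were higher.

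None of the 7 genes was called by limma between ESC 3D and EpiLCs, where 12.4% of all genes were, or between Embryo 3D and EpiLCs, where 18.8% were. In the first comparison adjusted p was under 0.05 for 4 genes (45.4% of all genes), among them Lifr (-0.82 ± 0.15, adjusted p = 0.00111) and Socs3 (0.65 ± 0.12). In the second, where 56% of all genes had an adjusted p under 0.05, it was so for Socs3 (0.74 ± 0.12) and Il6st (0.80 ± 0.11), whose EpiLC libraries, at 4.93, 5.46 and 6.44 TPM, were the lowest of the cultures. Gab1 differed far more than any of the 7 genes: it was at 162, 172 and 164 TPM in EpiLCs and at 10.6 to 22.0 TPM in the other cultures (-3.68 to -2.91 in the comparisons with ESC 3D and 2D EpiSCs, -3.79 with Embryo 3D).

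Between the 2 kinds of 3D culture, none of the 7 genes was called by limma, where 3.96% of all genes were, and adjusted p was under 0.05 for 21.1% of all genes and for Lif, Lifr, Il6st and Jak2, each at a lower mean in ESC 3D than in Embryo 3D. The libraries of these 4 genes did not overlap, nor did those of 39.2% of all genes. With near-identical libraries averaged, adjusted p was 0.141 to 0.338 for the 4 genes. Lifr was at 1.66, 1.65 and 2.67 TPM against 4.52, 3.12 and 3.22 TPM (-0.63 ± 0.15, adjusted p = 0.0155), and Il6st at 7.55, 7.09 and 8.53 TPM against 9.68, 11.1 and 10.5 TPM (-0.39 ± 0.11, adjusted p = 0.0295). The median of all genes was -0.12, which leaves -0.51 for Lifr and -0.28 for Il6st. Cell line and genetic background may differ between these cultures as well as origin, and their part was not tested.

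The genes whose pattern over the 27 libraries, centred within embryo and within culture, was most like each of the 7 were named as a description; the libraries share kits and stages. Stat3 was closest to Ubash3b (Pearson r = 0.97), Slc13a5 (0.97) and Adgrg6 (0.97), and Socs3 to Fam160a1 (0.97), Rasl10a (0.97) and S100a11 (0.97). Lifr was closest to Zfp57 (0.97), C77080 and Tns3, Jak1 to Sipa1l2 (0.97), Epb41l1 and Mfge8, and Il6st to Siah2 (0.95), Zfp36l1 and Vgll4. Lif was closest to Otud1 (0.94), C2cd4a and Rhbdf2, and Jak2, with the weakest leading value, to N4bp2 (0.90), Irx3 and Vcl. The likeness of C2cd4a to Lif was in the embryo (r = 0.96) and not in the cultures (r = -0.25). Among the 7, Stat3 and Jak1 ran together in the 15 embryo libraries (r = 0.94) and in the 12 cultures (r = 0.91), while Stat3 and Jak2 did so in culture (r = 0.90) but not in the embryo (r = 0.12).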

How the data were processed

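Bulk RNA-seq of 27 mouse libraries was used; 8 further samples of the series (single-cell RNA-seq and bisulfite sequencing) were not analysed here. Per the methods the authors trimmed reads with cutadapt (version 2.4 per the labels), aligned them with STAR to mm10 and quantified GENCODE genes with StringTie; the deposited values are TPM, which keep no depth, so limma on log2 values took the place of a count test. Lines of 12 gene IDs that occurred more than once were summed, and 56 lines with empty cells were read as 0. Autosomal protein-coding genes above 2 TPM in at least 3 libraries of a set were tested with limma 3.58.1 (R 4.3.3) on log2(TPM + 1), with all groups of the set in one fit and without a block; the script was tested on simulated data. Shares and ratios were compared by permutation tests in Python 3.11.15. The 7 genes, the gene lists and the comparisons were chosen with earlier results of these data known. Genes named were the 7, up to 3 called genes per list, comparison and direction with the largest non-overlapping change, and the 3 genes most correlated with each of the 7; others named were chosen after their values were seen. Alternatives covered pseudocount, filter, scaling, samples in the fit, replicate block, trend, near-identical libraries and each library left out.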

Additional observations from a re-analysis of the deposited data

Results flagged for a closer look

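Of the 7 genes, 4 differed between the 3D cultures from embryonic stem cells and those from epiblasts in the direct limma contrast, without reaching the fold required for a call. Lif differed by -0.63 on the log2 scale (adjusted p = 0.0484), Lifr by -0.63 (adjusted p = 0.0155), Il6st by -0.39 (adjusted p = 0.0295) and Jak2 by -0.59 (adjusted p = 0.044). Adjusted p was under 0.05 for 21.1% of all genes. In each of the 4 genes all ESC 3D libraries lay below all Embryo 3D libraries, and the libraries of 39.2% of all genes did not overlap in one direction or the other. Adjusted p went to 0.05 or above in 11 of 14 alternatives for Lif (up to 0.303) and for Jak2 (up to 0.338), in 6 for Il6st (up to 0.334) and in 4 for Lifr (up to 0.141). Groups of 3 libraries were not searched for single outlying values. Origin cannot be told apart here from cell line and genetic background.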

How the results depend on the processing

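Under the alternatives, 1057 of 1106 gene values kept their direction and side of the threshold. A further 19, none of them called, turned in sign, among them Socs3 in E7.5 against E6.5 (0.15 to -0.11) and Il6st in E7.5 against E3.5 (0.04 to -0.24) on rescaling. The count of genes called in ESC 3D against 2D EpiSCs went from 4 to 1 on rescaling, and that in Embryo 3D against 2D EpiSCs from 1 to 0 on rescaling, 0 with near-identical libraries averaged and between 0 and 1 with a library left out. With a pseudocount of 0.1, ESC 3D against EpiLC went from 0 to 1 (Lifr, -1.08) and E7.5 against E6.5 from 1 to 2 (Lif, -2.82), as it did without E6.5 replicate 2 or 3 (range 1 to 2). With a library left out, 5 to 7 genes were called in E5.5 against E4.5 and 3 to 4 in ESC 3D against 2D EpiSCs. Lif at E5.5 turned from 0.99 to -2.15 with E3.5 in place of E4.5, where the other stage differs by construction; with that choice Jak1 passed (-1.83) and Jak2 did not (-0.50). With a library left out, the pseudo-F of the Jak1 share in the embryo ranged from 4.2 (permutation p = 0.0504, without E3.5 replicate 2) to 9.44, and that of the Stat3 share in culture from 1.89 to 5.4 (permutation p = 0.031 without ESC 3D replicate 3 and 0.0364 without EpiLC replicate 3). Replicate numbers did not pair the samples: deviations of same-numbered libraries had a mean correlation of -0.0299 in culture and -0.0166 in the embryo. A replicate block changed none of 77 gene calls (4, 1, 0, 0, 2 and 0 calls in culture, 3, 5, 0, 1 and 5 in the embryo). A fit without the E4.5 libraries, added after the data were seen, gave the same counts for the other embryo steps (0, 1 and 5). The cause of the other changes was not tested. TPM without counts leaves the depth behind Lif, at 0 in 1 library, unknown. Median absolute log2 differences of 0.0569 to 0.065 between some replicates cannot be told apart from repeat preparations of 1 culture without counts.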
